A study of Rattus norvegicus with 10 samples.

Results

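Histone deacetylases (HDACs) are the zinc-dependent enzymes that remove acetyl groups from lysines of histones and other proteins. Their mRNAs were followed in primary rat oligodendrocyte progenitor cells (OPCs) and oligodendrocytes (OLs). A set of 10 HDAC genes was listed by name, and a gene was taken as a member where its symbol in the deposited gene table was on that list. Of these, 9 were found among the 23487 genes of the count table, namely Hdac1, Hdac2, Hdac3, Hdac4, Hdac5, Hdac7, Hdac8, Hdac9 and Hdac11. Hdac6 was not matched by symbol and is described apart from the members.

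The cells came from cerebral cortices of Sprague-Dawley rat pups aged P1 to P3. Mixed glial cultures were shaken to release OPCs, and contaminating cells were reduced by differential adhesion. OPCs were kept with FGF2 and PDGF-AA and were transfected with an inhibitor of miR-145-5p (anti-miR-145) or a scrambled inhibitor (anti-miR-ctl), then assayed 24 h later. OLs were differentiated with triiodothyronine, CNTF and N-acetyl cysteine and were assayed 5 days (DD5) after transfection with a miR-145-5p mimic (miR-145), with miR-145 and miR-219 mimics together (miR-145+miR-219), or with a scrambled mimic (miR-ctl). Each oligonucleotide was used at 30 nM. For sequencing, the methods of the paper name lentivirus instead, whereas its results and the labels name mimics, and the labels were followed. The 5 groups held 2 stranded mRNA libraries each, 10 in all, with 33505706 to 42684206 estimated counts per library. Nothing in the labels says that replicates came from separate cultures. The paper calls its replicates biological in general, but defines a primary culture by a mouse where these cells are from rat, so p-values are taken to measure only the spread between these libraries, which may be technical. A treatment tag of both miR-145 libraries also names miR-219, whereas their titles and descriptions name miR-145 alone, and they are given here as miR-145. Mature miRNAs were not analysed here, so the transfections themselves were not checked. The miR-145-5p sequence, which the mimic copies, is shown because its seed is what pairs with target mRNAs. It is printed 5′ to 3′ from RefSeq (GRCr8) with the seed, bases 2 to 8, in capitals.
rno-miR-145-5p: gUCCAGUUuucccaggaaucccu

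HDACs fall into classes by sequence. Class I enzymes (Hdac1, Hdac2, Hdac3 and Hdac8) are mainly nuclear, and Hdac1, Hdac2 and Hdac3 work inside corepressor complexes. Class IIa enzymes (Hdac4, Hdac5, Hdac7 and Hdac9) shuttle between nucleus and cytoplasm, bind MEF2 transcription factors and are held in the cytoplasm by 14-3-3 proteins once phosphorylated, while Hdac11 is the sole class IV enzyme. In the OL lineage, loss of both Hdac1 and Hdac2 is known to block OL differentiation through β-catenin and Tcf7l2.

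Markers were examined first. The summed level of 8 OL markers, in CPM (counts scaled to library size), was 1248 and 1314 in anti-miR-ctl OPCs and 1095 and 1086 in anti-miR-145 OPCs, where Cnp had the highest CPM. Of these markers Myrf (87.8 and 75.2 CPM to 33.6 and 34.6 CPM) and Mobp fell with anti-miR-145 and Mag rose (9.22 and 9.21 CPM to 12.02 and 11.8 CPM). In OLs the sum was 16875 and 30998 with miR-ctl, 15530 and 24815 with miR-145, and 19377 and 34021 with miR-145+miR-219, where Mbp had the highest CPM. Every OL library thus lay above every OPC library, and in each OL group replicate 2 lay above replicate 1. The sum of 5 OPC markers, led by Ptprz1 in every library, was 4112 and 3990 in anti-miR-ctl OPCs, 3815 and 4836 in anti-miR-145 OPCs, and between 1408 and 2093 in the OLs. From anti-miR-ctl OPCs to miR-ctl OLs 4 of them fell, but Gpr17 rose from 26.2 and 21.5 CPM to 375 and 265 CPM. With anti-miR-145, Pdgfra rose from 915 and 908 CPM to 1228 and 1524 CPM and Cspg4 fell from 576 and 560 CPM to 347 and 418 CPM. In OLs Pdgfra was at 265 and 186 CPM with miR-ctl and 169 and 174 CPM with miR-145. Gpr17 (375 and 265 CPM to 208 and 183 CPM) and Cspg4 were also lower with miR-145 without overlap. Ptprz1 and Cspg5 overlapped, with log2 fold changes above 0. Of these 5 markers edgeR called 0 and DESeq2 1 in that comparison, beside 0% and 4.2% of all genes.

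Other cell types were also represented. The sum of 6 astrocyte markers was 441 and 411 CPM in anti-miR-ctl OPCs and 217 and 270 CPM in anti-miR-145 OPCs, with Slc1a3 on top and Gjb6 at 0 counts in replicate 1 of each. Of 5 tested there, 2 were called lower and 1 higher, since Slc1a3 fell from 404 and 376 CPM to 167 and 203 CPM and Slc1a2 fell too, but Gfap rose from 8.23 and 7.81 CPM to 40.7 and 51.1 CPM. In OLs this sum was led by Gfap and reached 5661 and 4820 CPM with miR-ctl, 11374 and 7870 CPM with miR-145, and 9384 and 5657 CPM with miR-145+miR-219. Both miR-145 libraries therefore lay above both miR-ctl libraries, whereas the lower miR-145+miR-219 library lay just below the higher miR-ctl library. The 9 microglial markers, of which none was at 0, summed to 294 and 442 CPM in miR-ctl OLs, 302 and 759 CPM in miR-145 OLs, 284 and 504 CPM in miR-145+miR-219 OLs, 913 and 853 CPM in anti-miR-ctl OPCs and 860 and 697 CPM in anti-miR-145 OPCs. Csf1r, C1qa or C1qb had the highest CPM of them. With miR-145 relative to miR-ctl all 9 had a log2 fold change above 0 (median 0.61), 2 of them without overlap beside 47.3% of all genes. There edgeR called 0 and DESeq2 1, beside 4.2% of all genes. With miR-145+miR-219 relative to miR-ctl 6 of 9 were above 0, and relative to miR-145 0 of 9 were (median -0.43), all with overlap. Between the OPC groups and between the stages the microglial markers did not move together. With anti-miR-145 4 were called higher and 4 lower, and from control OPCs to control OLs 5 were called lower, while C1qa, C1qb, Cx3cr1 and P2ry12 lay higher in both OL libraries without a call by edgeR, although DESeq2 called C1qa and C1qb.

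Markers of dividing cells (4 of 4 found) separated the OPC groups. Their sum was 1130 and 1204 CPM in anti-miR-ctl OPCs and 352 and 439 CPM in anti-miR-145 OPCs, led by Top2a, and all 4 were called lower in anti-miR-145 OPCs. In OLs it ran from 74.0 to 148 CPM. Of 7 fibroblast and mural cell markers 5 were found, and they summed to 4.0 and 4.21 CPM in miR-ctl OLs, 8.57 and 35.3 CPM in miR-145 OLs, 8.15 and 9.68 CPM in miR-145+miR-219 OLs and at most 3.05 CPM in OPCs. Pdgfrb or Col1a1 was on top, and Dcn was at 0 in replicate 1 of miR-ctl and of miR-145+miR-219 OLs, Acta2 in replicate 1 of anti-miR-ctl OPCs and Col1a2 in replicate 2 of both OPC groups. The 3 endothelial markers found of 5 (Kdr or Flt1 on top) summed to at most 20.6 CPM. In OLs, Kdr was at 20.2 and 14.4 CPM with miR-ctl, 9.09 and 5.23 CPM with miR-145, and 8.60 and 7.55 CPM with miR-145+miR-219. Relative to miR-ctl, Cdh5 lay higher in both mimic groups. Flt1 lay higher with miR-145 and lower with both mimics, and neither gene exceeded 0.556 CPM in OLs. In each comparison with miR-ctl, edgeR called 0 of the 3 endothelial markers and DESeq2 called 1. With miR-145 relative to miR-ctl, DESeq2 also called 3 of 6 astrocyte markers and 2 of 4 fibroblast and mural cell markers tested. It called 0 of the OL, neuronal and dividing-cell markers there, beside 4.2% of all genes. Flt1 fell from 10.7 and 10.1 CPM in anti-miR-ctl OPCs to 0.993 and 0.749 CPM in anti-miR-145 OPCs. Between these OPC groups Kdr, at 0.304 and 0.384 CPM against 0.670 and 0.658 CPM, lay higher without a call and Cdh5 overlapped. The 4 neuronal markers found of 6 (Tubb3 or Syt1 on top) summed to 80.9 and 77.4 CPM in anti-miR-ctl OPCs, 111 and 112 CPM in anti-miR-145 OPCs, where Tubb3 and Rbfox3 were called higher, Syt1 lay lower without a call and Gad1 overlapped, and 106 to 134 CPM in OLs. In bulk RNA, fewer cells of a type and less RNA per cell cannot be told apart, and the part these cell types play in any HDAC value was not tested.

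Levels and comparisons of the members are given as CPM after TMM scaling over all 10 libraries and as log2 fold changes from edgeR's quasi-likelihood test, fitted on the 4 libraries of each comparison. A gene counts as called when its p, adjusted after Benjamini and Hochberg over all genes tested, is under 0.05. All 9 members passed the filter on low counts in each of the 5 comparisons. Of all members and comparisons, the largest log2 fold change was that of Hdac11 between the stages. From anti-miR-ctl OPCs to miR-ctl OLs, Hdac11 and Hdac4 rose and Hdac2 and Hdac5 fell, so that 4 of 9 members were called, where 57.5% of all 15721 genes tested were called. The 2 groups did not overlap for 8 of 9 members, meaning that each library of 1 group exceeded each library of the other, against 81.7% of all genes. The median log2 fold change was -0.03 over the members and 0.01 over all genes. Stage, kind of control oligonucleotide and time after transfection differ together in this comparison and cannot be told apart.

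A single member was called with the miR-145 inhibitor. In anti-miR-145 OPCs relative to anti-miR-ctl, Hdac5 rose, which makes 1 of 9 members called, beside 28.1% of 15496 genes. The groups did not overlap for 6 of 9 members (Hdac2, Hdac3, Hdac5, Hdac7 and Hdac8 higher, Hdac11 lower), beside 67.8% of all genes, and the median log2 fold change was 0.16 over the members and 0.00 over all genes.

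In OLs given miR-145, edgeR called 0 of 9 members relative to miR-ctl, and 0 of 15461 genes (0%) overall. At an unadjusted p under 0.05 there were 3 members, with Hdac8 and Hdac9 on the higher and Hdac2 on the lower side, beside 13.4% of all genes. DESeq2 called 0 members and 4.2% of all genes. With replicate number as a block in edgeR, 2 members (Hdac2 and Hdac8) and 2272 genes were called. The labels do not say that a replicate number marks a shared culture. Groups did not overlap for 6 of 9 members (Hdac7, Hdac8 and Hdac9 higher, Hdac1, Hdac2 and Hdac5 lower), against 47.3% of all genes, and the median log2 fold change was -0.13 over the members and -0.01 over all genes.

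With miR-145+miR-219 relative to miR-ctl, edgeR called 0 of 9 members and 0 of 15436 genes (0%). At an unadjusted p under 0.05 there were 0 members, beside 6.19% of all genes, and DESeq2 called 0 members and 0.687% of all genes. Groups did not overlap for 3 of 9 members (Hdac9 higher, Hdac1 and Hdac2 lower), against 36.7% of all genes, and the median log2 fold change was 0.02 over the members and 0.00 over all genes. Between miR-145+miR-219 and miR-145 OLs, edgeR called 0 of 9 members and 0 of 15501 genes (0%), 0 members had an unadjusted p under 0.05 beside 1.47% of all genes, and DESeq2 called 0 members and 0.0581% of all genes. Groups did not overlap there for 2 of 9 members (Hdac2 higher, Hdac7 lower), against 24.8% of all genes, and the medians were -0.03 and 0.00. The 3 OL comparisons share libraries with one another, and the miR-ctl libraries also enter the comparison of stages.

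**Figure D1:**
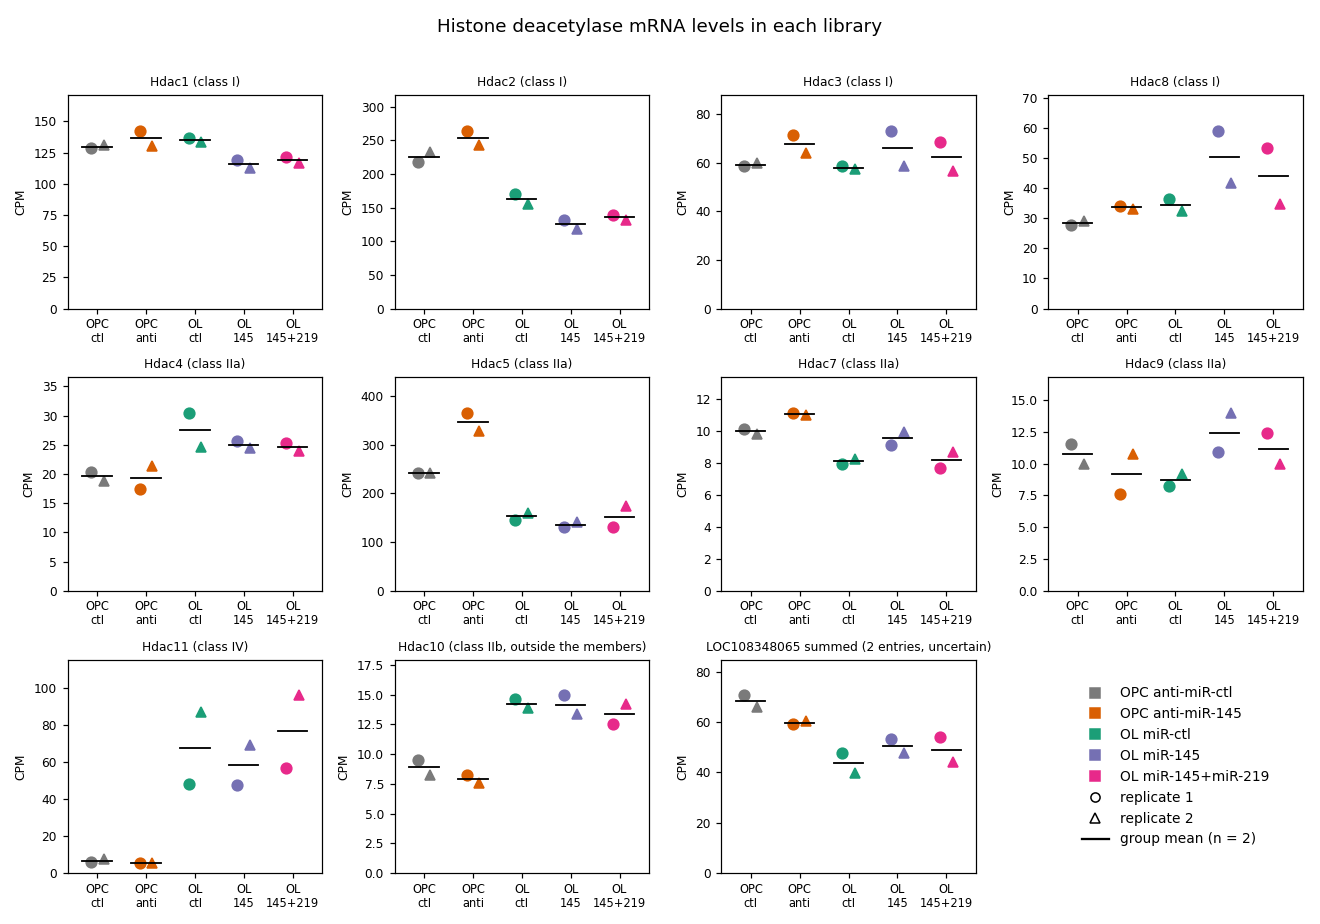
Level of each member, of Hdac10 and of the summed LOC108348065 entries in CPM (vertical axis, from 0, a scale of its own in each panel) in the 5 groups (horizontal axis); circles are replicate 1, triangles replicate 2 and bars group means (n = 2). Hdac11 lies between 5.54 and 7.48 CPM in the OPC libraries and between 47.7 and 96.0 CPM in the OL libraries.

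Among class I members, Hdac2 differed most between the stages. Hdac2 stood at 217 and 232 CPM in anti-miR-ctl OPCs, 264 and 244 CPM in anti-miR-145 OPCs, 169 and 155 CPM in miR-ctl OLs, 131 and 119 CPM in miR-145 OLs, and 139 and 131 CPM in miR-145+miR-219 OLs. All 4 OPC libraries lay above all 6 OL libraries, and both miR-ctl libraries lay above the 4 libraries with a mimic of miR-145. From control OPCs to control OLs Hdac2 fell by 0.47 ± 0.09 on the log2 scale (SE; 2 libraries per group; edgeR adjusted p = 0.00746), or 1.39-fold, a call that was lost without replicate 1 (-0.53) or without replicate 2 (-0.42) of anti-miR-ctl. Its log2 fold change was -0.37 ± 0.11 with miR-145 relative to miR-ctl (adjusted p = 0.280), -0.26 ± 0.11 with miR-145+miR-219 relative to miR-ctl (adjusted p = 0.809), 0.10 ± 0.10 between the mimic groups and 0.19 ± 0.09 with anti-miR-145 in OPCs (adjusted p = 0.163). With a replicate block, Hdac2 was called with miR-145 relative to miR-ctl (-0.37, edgeR adjusted p = 0.0248). Group means were ordered anti-miR-145 OPCs, anti-miR-ctl OPCs, miR-ctl OLs, miR-145+miR-219 OLs and miR-145 OLs, and of the neighbours in that order only the stages were called apart.

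Hdac1, the closest relative of Hdac2 and its partner in the Sin3, NuRD and CoREST complexes, varied little. It was measured at 128 and 131 CPM in anti-miR-ctl OPCs, 142 and 131 CPM in anti-miR-145 OPCs, 136 and 133 CPM in miR-ctl OLs, 119 and 113 CPM in miR-145 OLs, and 122 and 117 CPM in miR-145+miR-219 OLs. The 4 libraries with a mimic of miR-145 were the lowest of all 10. The log2 fold change relative to miR-ctl was -0.21 ± 0.10 with miR-145 (adjusted p = 0.436) and -0.17 ± 0.10 with both mimics (adjusted p = 0.821), neither called, and between control OLs and control OPCs it was 0.05 ± 0.07. Counting may share reads between Hdac1 and the near-identical Hdac1l, which makes Hdac1 uncertain to that extent, although Hdac1l held at most 0.196 CPM in any library. The Hdac2 to Hdac1 ratio of CPM was 1.69 and 1.77 in anti-miR-ctl OPCs, 1.85 and 1.87 in anti-miR-145 OPCs, 1.24 and 1.17 in miR-ctl OLs, 1.10 and 1.05 in miR-145 OLs, and 1.15 and 1.12 in miR-145+miR-219 OLs. The ratio was thus higher in every OPC library than in any OL library.

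Hdac3 works in corepressor complexes apart from those of Hdac1 and Hdac2. It was found at 58.6 and 59.8 CPM in anti-miR-ctl OPCs, 71.5 and 64.0 CPM in anti-miR-145 OPCs, 58.8 and 57.4 CPM in miR-ctl OLs, 73.3 and 58.7 CPM in miR-145 OLs, and 68.5 and 56.7 CPM in miR-145+miR-219 OLs. The OL groups overlapped, and replicate 1 was the higher library in each. With anti-miR-145 both libraries lay above the controls, at a log2 fold change of 0.21 ± 0.09 that was not called (adjusted p = 0.142). Control OLs and control OPCs differed by -0.03 ± 0.07.

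Hdac8 acts outside these complexes and is known as the deacetylase of the cohesin subunit Smc3. It had 27.8 and 29.2 CPM in anti-miR-ctl OPCs, 34.1 and 33.2 CPM in anti-miR-145 OPCs, 36.4 and 32.5 CPM in miR-ctl OLs, 59.1 and 41.7 CPM in miR-145 OLs, and 53.3 and 34.7 CPM in miR-145+miR-219 OLs. Both miR-145 libraries lay above both miR-ctl libraries, but the miR-145 replicates differed by more than the miR-ctl replicates did. With miR-145 the log2 fold change was 0.55 ± 0.19 (adjusted p = 0.322, not called), and it was 0.29 without replicate 1 of miR-145 and 0.78 without replicate 2. Hdac8 was called in this comparison with a replicate block. With miR-145+miR-219 the log2 fold change was 0.36 ± 0.22 relative to miR-ctl (adjusted p = 0.832), the groups overlapped, and the value was 0.02 without replicate 1 of miR-145+miR-219. In OPCs it was 0.26 ± 0.09 with anti-miR-145 (adjusted p = 0.0762), and between control OLs and control OPCs 0.27 ± 0.10 (adjusted p = 0.0659), neither of them called. The astrocyte marker sum was highest in the same OL libraries, replicate 1 of miR-145 (11374 CPM) and replicate 1 of miR-145+miR-219 (9384 CPM), and its part in the Hdac8 values was not tested. Relative to Hdac3 in the same library, the Hdac8 ratio was 0.474 and 0.488 in anti-miR-ctl OPCs, 0.477 and 0.520 in anti-miR-145 OPCs, 0.618 and 0.567 in miR-ctl OLs, 0.806 and 0.711 in miR-145 OLs, and 0.778 and 0.613 in miR-145+miR-219 OLs. Every OL library was above every OPC library in this ratio.

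Summed over the 4 class I members, levels were 432 and 453 CPM in anti-miR-ctl OPCs, 512 and 471 CPM in anti-miR-145 OPCs, 401 and 379 CPM in miR-ctl OLs, 383 and 332 CPM in miR-145 OLs, and 383 and 340 CPM in miR-145+miR-219 OLs. Each anti-miR-145 library was above each anti-miR-ctl library, and every OL library was below every OPC library.

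Of the class IIa members, Hdac5 varied most across the groups. Hdac5 reached 241 CPM in each anti-miR-ctl OPC library and 365 and 328 CPM with anti-miR-145, and it stood at 145.19 and 160 CPM in miR-ctl OLs, 131 and 141 CPM in miR-145 OLs, and 131 and 173 CPM in miR-145+miR-219 OLs. The OPC groups did not overlap with each other or with any OL library, whereas miR-145+miR-219 OLs overlapped both of the other OL groups. With anti-miR-145, Hdac5 rose 1.45-fold, by a log2 fold change of 0.54 ± 0.09 (SE; 2 libraries per group; edgeR adjusted p = 0.00555), and with any single library left out the value lay between 0.44 and 0.63. From control OPCs to control OLs it fell by 0.67 ± 0.08 on the log2 scale (adjusted p = 0.00204), or 1.59-fold. In OLs the log2 fold change was -0.16 ± 0.12 with miR-145 (adjusted p = 0.580) and 0.00 ± 0.17 with miR-145+miR-219, both relative to miR-ctl. Whether the effect of anti-miR-145 in OPCs differs from that of miR-145 in OLs was not tested. Group means followed the order anti-miR-145 OPCs (347 ± 26.2 CPM, SD, n = 2), anti-miR-ctl OPCs (241 ± 0.0622), miR-ctl OLs (153 ± 10.6), miR-145+miR-219 OLs (152 ± 29.7) and miR-145 OLs (136 ± 6.84). The first 3 were called apart as neighbours, and the 3 OL groups were not.

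Hdac4 was the other class IIa member that was called. It held 20.4 and 18.8 CPM in anti-miR-ctl OPCs, 17.4 and 21.3 CPM in anti-miR-145 OPCs, 30.5 and 24.7 CPM in miR-ctl OLs, 25.6 and 24.5 CPM in miR-145 OLs, and 25.3 and 24.0 CPM in miR-145+miR-219 OLs. Every OL library lay above every OPC library, while the OPC groups overlapped and so did miR-145 and miR-ctl OLs. From control OPCs to control OLs Hdac4 rose 1.40-fold, by a log2 fold change of 0.49 ± 0.13 (adjusted p = 0.0266), which was not called without replicate 1 (0.54) or without replicate 2 (0.43) of anti-miR-ctl. The other log2 fold changes were -0.13 ± 0.15 with miR-145, -0.16 ± 0.15 with miR-145+miR-219 and -0.01 ± 0.12 with anti-miR-145, each against its control. The Hdac5 to Hdac4 ratio was 11.8 and 12.8 in anti-miR-ctl OPCs, 21.0 and 15.4 in anti-miR-145 OPCs, 4.77 and 6.50 in miR-ctl OLs, 5.13 and 5.76 in miR-145 OLs, and 5.20 and 7.21 in miR-145+miR-219 OLs. The OPC groups did not overlap in this ratio, and the 3 OL groups did.

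Hdac7 and Hdac9, which like Hdac4 and Hdac5 bind MEF2 factors, were not called in any comparison. Hdac7 lay at 10.1 and 9.81 CPM in anti-miR-ctl OPCs, 11.1 and 10.97 CPM in anti-miR-145 OPCs, 7.92 and 8.23 CPM in miR-ctl OLs, 9.12 and 9.90 CPM in miR-145 OLs, and 7.66 and 8.64 CPM in miR-145+miR-219 OLs. Its log2 fold change was 0.24 ± 0.17 with miR-145 (adjusted p = 0.579), with both libraries above miR-ctl, 0.16 ± 0.11 with anti-miR-145 and -0.31 ± 0.12 between control OLs and control OPCs (adjusted p = 0.0850). Hdac9 lay at 11.5 and 9.95 CPM in anti-miR-ctl OPCs, 7.62 and 10.7 CPM in anti-miR-145 OPCs, 8.27 and 9.18 CPM in miR-ctl OLs, 10.9 and 14.0 CPM in miR-145 OLs, and 12.4 and 9.96 CPM in miR-145+miR-219 OLs. All 4 libraries with a mimic of miR-145 were above both miR-ctl libraries for Hdac9. The log2 fold changes there were 0.52 ± 0.20 with miR-145 (adjusted p = 0.357) and 0.36 ± 0.18 with miR-145+miR-219 (adjusted p = 0.814), and neither was called. The Hdac9 to Hdac7 ratio ran from 0.687 to 1.62 over the 10 libraries, with the lowest value in replicate 1 of anti-miR-145 OPCs and the highest in replicate 1 of miR-145+miR-219 OLs.

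The 4 class IIa members together summed to 284 and 280 CPM in anti-miR-ctl OPCs, 401 and 371 CPM in anti-miR-145 OPCs, 192 and 202 CPM in miR-ctl OLs, 177 and 189 CPM in miR-145 OLs, and 177 and 216 CPM in miR-145+miR-219 OLs.

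Hdac11, which removes long-chain acyl groups as well as acetyl groups, was low in OPCs and high in OLs. It was measured at 5.92 and 7.48 CPM in anti-miR-ctl OPCs, 5.61 and 5.54 CPM in anti-miR-145 OPCs, 48.0 and 87.2 CPM in miR-ctl OLs, 47.7 and 69.1 CPM in miR-145 OLs, and 56.9 and 96.0 CPM in miR-145+miR-219 OLs. All 6 OL libraries were far above the 4 OPC libraries, and in each OL group replicate 2 was the higher library, as it was for the OL marker sum. From control OPCs to control OLs Hdac11 rose 10.1-fold, by a log2 fold change of 3.33 ± 0.33 (SE; 2 libraries per group; edgeR adjusted p = 0.000913), and by 2.84 to 3.71 with any single library left out. The log2 fold change was -0.20 ± 0.32 with miR-145 and 0.18 ± 0.37 with miR-145+miR-219, both relative to miR-ctl, 0.37 ± 0.32 between the mimic groups and -0.25 ± 0.16 with anti-miR-145 in OPCs, none of them called. In the 3 OL comparisons the groups overlapped and the sign turned with a single library left out, so no direction is given.

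The genes whose log2(CPM + 1) correlated most strongly with that of Hdac11 over the 10 libraries, out of 12510 genes with a symbol and a mean of at least 1 CPM, were Mbp, Sept4 and Trpc1. Mbp encodes a major protein of compact myelin. Pearson's r was 0.999 for Mbp, 0.999 for Sept4 and 0.998 for Trpc1. How far the separation of 6 OL from 4 OPC libraries sets these values was not tested. Over the 6 OL libraries alone r was 0.996, 0.969 and 0.969. Mbp stood at 6224 and 13143 CPM in miR-ctl OLs, 6236 and 10665 CPM in miR-145 OLs, 8096 and 15517 CPM in miR-145+miR-219 OLs, 251 and 280 CPM in anti-miR-ctl OPCs, and 244 and 231 CPM in anti-miR-145 OPCs. Replicate 2 was again the higher library in each OL group. For Hdac5 the corresponding genes were Mllt1, Elp5 and Bud23, with r of 0.997, 0.994 and 0.992 over the 10 libraries and 0.992, 0.937 and 0.834 over the 6 OL libraries. Mllt1 held 97.2 and 99.7 CPM in anti-miR-ctl OPCs, 126 and 122 CPM in anti-miR-145 OPCs, and between 72.5 and 85.3 CPM in the OL libraries. These coefficients describe the libraries, which share their groups, and carry no test.

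Hdac6 removes acetyl groups from tubulin in the cytoplasm and is a class IIb enzyme. The symbol LOC108348065 stood on 2 entries of the gene table, of which ENSRNOG00000047281 carries the NCBI gene number that RefSeq (GRCr8) gives to Hdac6, while the number of ENSRNOG00000048738 was not matched there. The former was at 0 CPM in replicate 1 of miR-145, miR-145+miR-219 and anti-miR-145 and at up to 11.2 CPM elsewhere, so the division of counts between the entries is uncertain, and they were also summed, a choice made after seeing the data. The sum was 70.7 and 66.2 CPM in anti-miR-ctl OPCs, 59.2 and 60.3 CPM in anti-miR-145 OPCs, 47.8 and 39.9 CPM in miR-ctl OLs, 53.3 and 47.7 CPM in miR-145 OLs, and 54.0 and 44.2 CPM in miR-145+miR-219 OLs. All OPC libraries lay above all OL libraries. The sum fell by 0.65 ± 0.11 on the log2 scale from control OPCs to control OLs (edgeR adjusted p = 0.00580). It was not called with miR-145 (log2 fold change 0.21 ± 0.14), miR-145+miR-219 (0.17 ± 0.16) or anti-miR-145 (-0.18 ± 0.08, adjusted p = 0.138), each against its control. Taken singly between the stages, ENSRNOG00000048738 was called lower in OLs (-0.69 ± 0.18, edgeR adjusted p = 0.0238). ENSRNOG00000047281, the entry with the Hdac6 number, was not called there (-0.36 ± 0.59, edgeR adjusted p = 0.635), and its groups overlapped. Whether this sum measures Hdac6 alone is uncertain.

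Hdac10, the other class IIb enzyme and a deacetylase of polyamines, was not on the list of members. It was measured at 9.47 and 8.28 CPM in anti-miR-ctl OPCs, 8.24 and 7.61 CPM in anti-miR-145 OPCs, 14.6 and 13.8 CPM in miR-ctl OLs, 14.9 and 13.4 CPM in miR-145 OLs, and 12.5 and 14.2 CPM in miR-145+miR-219 OLs. Every OL library was above every OPC library. It rose 1.60-fold from control OPCs to control OLs (log2 fold change 0.68 ± 0.13, adjusted p = 0.00779), and it was not called in the other 4 comparisons.

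**Figure D2:**
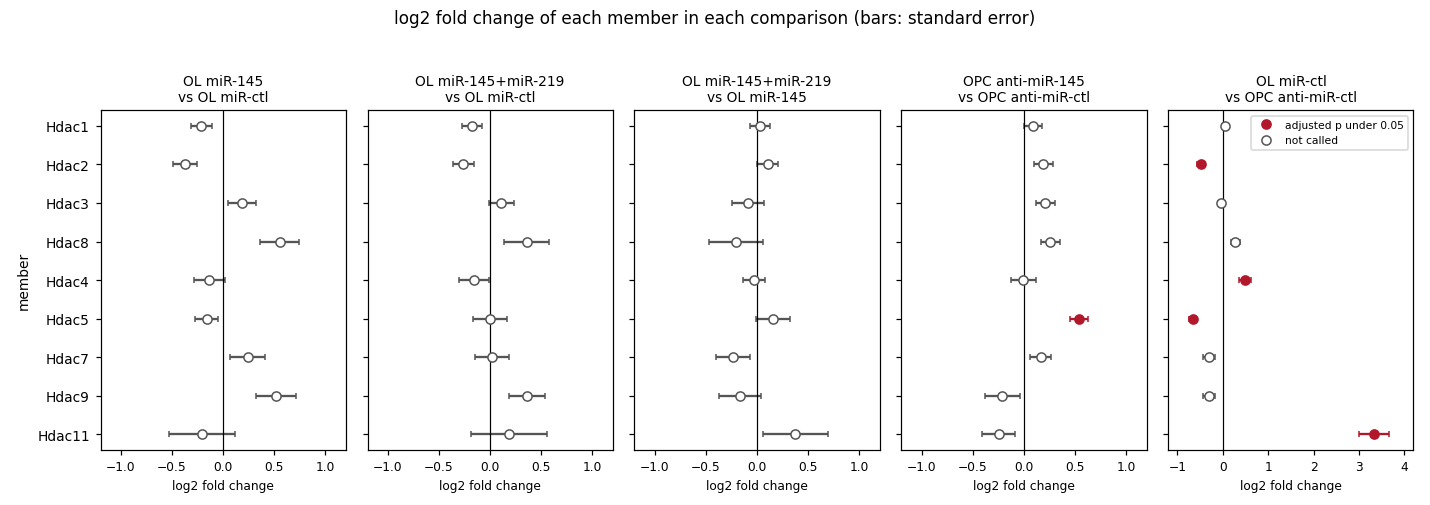
The log2 fold change of each member (horizontal axis, first-named group relative to the second) in each of the 5 comparisons, with bars for the standard error; filled red points are called at an adjusted p under 0.05, and the last panel has a wider axis. Called members are Hdac5 in the OPC comparison (0.54) and Hdac2 (-0.47), Hdac4 (0.49), Hdac5 (-0.67) and Hdac11 (3.33) between control OLs and control OPCs.

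Single libraries decided some of these calls. Between control OLs and control OPCs, Hdac5 and Hdac11 were called with any library left out, whereas Hdac2 and Hdac4 were not called without replicate 1 or without replicate 2 of anti-miR-ctl, which left 2 members called and 5071 and 5016 genes in place of 9042. Without replicate 2 of miR-ctl, 7 members were called (Hdac7, Hdac8 and Hdac9 in addition) and 10336 genes overall. In OPCs, Hdac5 was called with any library left out. Without replicate 2 of anti-miR-145, 5 members were called (Hdac2, Hdac3, Hdac8 and Hdac9 in addition) and 7130 genes overall in place of 4348, and without replicate 1 or replicate 2 of anti-miR-ctl 2424 and 2530 genes were.

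Genes that act with HDACs were followed in 7 lists, in which 84 genes were found. In the OL comparison of miR-145 with miR-ctl, edgeR called 0 of 83 tested, 12 had an unadjusted p under 0.05 beside 13.4% of all genes, and DESeq2 called 4 beside 4.2% of all genes, namely Sirt2, Mef2c, Tcf7l2 and Sox10, of which Sox10 is named after its value was seen. The median log2 fold change was -0.07 over these genes and -0.01 over all genes. Values follow for the gene with the smallest p in each list. Sirt2, an NAD-dependent tubulin deacetylase abundant in OLs, had 2057 and 2024 CPM with miR-145 and 2936 and 2794 CPM with miR-ctl, both libraries lower, at a log2 fold change of -0.48 ± 0.14 (adjusted p = 0.252). Tcf7l2, the Wnt effector named above, had 46.6 and 44.1 CPM against 68.5 and 66.0 CPM, again without overlap, at -0.56 ± 0.10 (adjusted p = 0.164). Mef2c, a transcription factor bound by class IIa HDACs, had 19.8 and 22.8 CPM against 13.4 and 14.0 CPM, at 0.65 ± 0.15 (adjusted p = 0.190). The NuRD subunit Mta2 gave a log2 fold change of -0.24 ± 0.11, the acetyltransferase Kat5 -0.20 ± 0.10, the bromodomain protein Brd3 -0.19 ± 0.12 and Dysf, from the list on Hdac6 and tubulin acetylation, 0.71 ± 0.32. Dysf is low, at 5.74 and 7.17 CPM with miR-145 and 4.95 and 2.95 CPM with miR-ctl.

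With miR-145+miR-219 relative to miR-ctl, edgeR called 0 of 82 partner genes tested, 2 had an unadjusted p under 0.05 (Tcf7l2 and Nkx2-2, the latter named after its value was seen) beside 6.19% of all genes, and DESeq2 called 0. Tcf7l2 was at 47.7 and 49.9 CPM with both mimics, below both miR-ctl libraries, at a log2 fold change of -0.46 ± 0.10 (adjusted p = 0.800). The genes with the smallest p in the remaining lists had log2 fold changes of -0.31 ± 0.14 (Sirt1), -0.23 ± 0.10 (Arid4a, a Sin3 subunit), 0.37 ± 0.15 (Camk1, a kinase), 0.29 ± 0.12 (Hat1), 0.66 ± 0.34 (Dysf) and -0.11 ± 0.11 (Brd3). Between miR-145+miR-219 and miR-145 OLs, edgeR called 0 of 83, 0 had an unadjusted p under 0.05 and DESeq2 called 0. In 6 of the 7 lists the smallest p there belonged to Sirt7 (0.18 ± 0.18), Gatad2b (0.14 ± 0.15), Mef2c (-0.37 ± 0.18), Crebbp (0.10 ± 0.13), Tppp (0.34 ± 0.31) and Olig2 (0.22 ± 0.12), all as log2 fold changes.

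In anti-miR-145 OPCs relative to anti-miR-ctl, 23 of 84 partner genes were called, 14 higher and 9 lower, beside 28.1% of all genes, with a median log2 fold change of 0.05. The counts by list moved by over 1.5 times under some alternatives. Among class I complex subunits 7 of 27 were called, and between 1 and 20 under the alternatives. Chd3 and Mbd3 of NuRD rose by 0.48 ± 0.08 and 0.41 ± 0.10 on the log2 scale. Elmsan1 of the mitotic deacetylase complex had 42.6 and 39.3 CPM in anti-miR-ctl OPCs and 21.2 and 22.7 CPM in anti-miR-145 OPCs and fell by 0.88 ± 0.09, and Sap30 of the Sin3 complex fell by 0.46 ± 0.12. Of 19 class IIa partners 3 were called, and 1 to 8 under the alternatives. Sik3, a salt-inducible kinase that phosphorylates class IIa HDACs, rose by 0.48 ± 0.09, while Prkd1, another of their kinases, went from 15.5 and 14.9 CPM to 4.72 and 6.40 CPM and fell by 1.43 ± 0.15, and Mef2c fell by 0.46 ± 0.13.

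Sirt6 was the 1 of 7 sirtuins called (0 to 4 under the alternatives), with a rise of 0.47 ± 0.10. Of 7 acetyltransferases 1 was called, Hat1, which acetylates newly made histones and fell by 0.89 ± 0.09. Markers of dividing cells were lower in the same libraries, and their part in the Hat1 value was not tested. In the list on Hdac6 and tubulin acetylation 2 of 6 were called, both higher, and 0 without either anti-miR-ctl library. Dysf rose by 1.57 ± 0.43 from levels of at most 0.247 CPM, and the chaperone gene Hsp90ab1 rose by 0.36 ± 0.09. For the 5 bromodomain readers edgeR called 0, 0 had an unadjusted p under 0.05 and DESeq2 called 0, and the smallest p belonged to Brd9 (-0.20 ± 0.10). Among lineage regulators 9 of 13 were called, again beside 28.1% of all genes. Nkx2-2 (0.86 ± 0.10), Stat3 (0.68 ± 0.08) and Olig1 (0.65 ± 0.08) rose the most, and Hes5 (-1.76 ± 0.31) and Id4 (-0.76 ± 0.15), known inhibitors of OL differentiation, and the gliogenic factor Nfia (-0.49 ± 0.12) fell the most.

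From control OPCs to control OLs, 48 of 84 partner genes were called, 25 higher and 23 lower, beside the 57.5% of all genes, and the median log2 fold change was -0.05. Sirtuins were called higher for 4 of 7. Sirt2 went from 213 and 209 CPM to 2936 and 2794 CPM, a rise of 3.76 ± 0.09 on the log2 scale, and the mitochondrial Sirt3 and Sirt4 rose by 1.39 ± 0.12 and 1.10 ± 0.17. Of the class I complex subunits 5 rose and 11 fell among 27, and 5 in all were called without either anti-miR-ctl library. Chd3 rose by 0.84 ± 0.08 and Rcor3 of CoREST by 0.43 ± 0.13, and Elmsan1 (-0.87 ± 0.19), Arid4a (-0.81 ± 0.09) and Sap30 (-0.60 ± 0.12) fell the most.

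Class IIa partners were called in both directions, 6 higher and 7 lower of 19, or 6 in all without either anti-miR-ctl library. The kinases Sik3, Sik2 and Prkd1 rose by 1.42 ± 0.18, 1.11 ± 0.11 and 1.08 ± 0.11 on the log2 scale, while the kinases Camk4 and Camk1 had log2 fold changes of -3.42 ± 0.56, from at most 0.842 CPM, and -1.10 ± 0.09, and the 14-3-3 gene Ywhah one of -1.01 ± 0.08. In the tubulin acetylation list 4 rose and 1 fell of 6, and 2 were called without either anti-miR-ctl library. Tppp, a tubulin polymerization protein of OLs, went from 7.49 and 7.26 CPM to 239 and 251 CPM (5.05 ± 0.09), Dysf had 4.26 ± 0.43 and Sqstm1 0.84 ± 0.16, whereas Hsp90ab1 had -0.29 ± 0.09. Hat1 (-1.84 ± 0.08) was the 1 of 7 acetyltransferases called and Brd7 (-0.38 ± 0.08) the 1 of 5 bromodomain readers, both lower in OLs. Lineage regulators were called higher for 6 and lower for 2 of 13, with Id4 (2.45 ± 0.13), Tcf7l2 (2.07 ± 0.09) and Nkx2-2 (1.24 ± 0.20) the highest, and Olig1 (-1.33 ± 0.08) and Olig2 (-0.38 ± 0.10) lower in OLs. Control OLs also held more astrocyte marker RNA, and control OPCs more dividing-cell marker RNA and a higher microglial marker sum, as given above, and their part in these values was not tested.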

How the data were processed

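Primary rat OPCs and OLs were profiled in 10 stranded mRNA libraries, whose titles and descriptions give the 5 groups. Salmon 0.12.0 was run by the authors against GENCODE Rnor6.0 transcripts, and what they deposited after import through tximport are estimated counts of genes without normalization. Their second table pairs gene IDs with symbols and NCBI gene IDs and holds columns of their DESeq2 comparison (mean level, fold change, standard error, statistic and p-values), which were not used. A symbol stood beside 14561 of its 16129 IDs.

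Estimated counts were rounded to whole numbers. Fractional values made up 16.0% to 17.5% of each library. Library totals ran from 33505706 to 42684206, and precision is limited by 2 libraries per group. Replicates in each group differed beyond counting error. For the 5 comparisons edgeR 4.0.16 in R 4.3.3 (TMM, estimateDisp, glmQLFit, glmQLFTest) was run separately, each time on the 4 libraries involved, after testing on simulated data. A gene was kept when 2 or more libraries had 5 or more counts. The standard error (SE) is the size of the log2 fold change over the square root of F. Alternatives were DESeq2 1.42.0, its size factors in edgeR, no filter, at least 10 counts in all 4 libraries, all groups in a single fit, a replicate block, and leaving out each library.

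The members and lists were chosen with earlier results of these data known. Named genes were all members, up to 3 called higher and 3 called lower with the largest fold change in each partner list and comparison (or the smallest p where none was called), less a few left out of the text, and 3 genes most like each of the 2 members of widest range. Of 143 listed symbols 128 were matched to an ID of their own, by symbol or through NCBI gene IDs in RefSeq (GRCr8), 4 with several IDs were left out, and 10 were not matched. Mideas and Elmsan1 share an entry, counted once. Transcript lengths were not used here, so ratios of 2 genes are compared only across libraries, and the gene of highest CPM in a list need not have the most transcripts. Figures were drawn with matplotlib 3.10.9 in Python 3.11.15.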

Additional observations from a re-analysis of the deposited data

How the results depend on the processing

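DESeq2 called 649 genes with miR-145, 106 with miR-145+miR-219 (each relative to miR-ctl) and 9 between the mimic groups, where edgeR called 0 in each, and it called the same number of members as edgeR in all 5 comparisons. All groups in a single fit gave 79 genes with miR-145 relative to miR-ctl and 2657 of 15496 with anti-miR-145 in OPCs. Without a filter, 1 gene was called with miR-145+miR-219 relative to miR-ctl. The cause of these differences was not tested.

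Replicate numbers are shared between groups, but the labels do not say that a number marks a shared culture. With a replicate block, 2 members were called with miR-145 relative to miR-ctl (Hdac2 and Hdac8) and 2272 genes, 132 genes with miR-145+miR-219 relative to miR-ctl and 184 between the mimic groups, and the block changed no other call of a member. Same-numbered libraries deviated together with a correlation across genes of 0.403, 0.467 and 0.632 in these 3 comparisons, -0.152 in the OPC comparison and 0.0679 between the stages.

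With single libraries left out, where a lone library was taken to vary like the other group, between 1 and 5 members and 2424 and 7130 genes were called in the OPC comparison, and between 2 and 7 members and 5016 and 10591 genes between control OLs and control OPCs.

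Signs turned only for members that were not called. As ranges over the left-out libraries, log2 fold changes with miR-145 relative to miR-ctl were -0.29 to 0.0298 (Hdac4) and -0.57 to 0.28 (Hdac11). With miR-145+miR-219 relative to miR-ctl they were -0.0254 to 0.23 (Hdac3), -0.31 to 0.00865 (Hdac4), -0.23 to 0.19 (Hdac5), -0.0839 to 0.11 (Hdac7) and -0.26 to 0.67 (Hdac11), and Hdac5 was also at -0.00332 in the single fit and -0.0118 with the replicate block. Between the mimic groups they were -0.22 to 0.0730 (Hdac3), -0.54 to 0.0703 (Hdac8), -0.0660 to 0.00108 (Hdac4), -0.0643 to 0.34 (Hdac5), -0.34 to 0.0405 (Hdac9) and -0.0543 to 0.71 (Hdac11). With anti-miR-145, Hdac4 ran from -0.15 to 0.12 and was at 0.0102 in the single fit. Summing the LOC108348065 entries turned the sign of the first entry with miR-145 (0.21) and miR-145+miR-219 (0.17) relative to miR-ctl and between the mimic groups (-0.0517). Of 450 recomputed values of the members 413 kept direction and call, 24 turned sign, 4 lost and 9 gained a call. The cause was not tested. Counts of called partner genes stayed within 1.5-fold in 308 of 350 recomputations. The other 42 leave many counts unstable. With anti-miR-145, the 7 called class I complex genes became 1 to 20, the 3 class IIa partners 1 to 8 and the 1 sirtuin 0 to 4, the 9 lineage regulators dropped to as few as 5 and the 2 genes of the tubulin list to 0, and acetyltransferases (1) and bromodomain readers (0) reached 5 and 2. Without a library of control OPCs, the stage counts dropped to 5 from 16 (class I complexes), 6 from 13 (class IIa partners), 2 from 5 (tubulin list), 0 from 1 (bromodomain readers) and, without replicate 2, 5 from 8 (lineage regulators). Without a library of control OLs, acetyltransferases went from 1 to 2 and bromodomain readers from 1 to 2 or 3. With miR-145, counts of 0 reached 1 or 2 in 3 lists with DESeq2 and 1 to 6 in 4 lists with the replicate block.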
